A study of Mus musculus with 6 samples.

Results

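The genes described here are 10 members of the Wnt and beta-catenin pathway, measured in cells that carried a mutant or a wild-type form of integrin-linked kinase (ILK). They are the ligands Wnt4, Wnt7b and Wnt9b, the effectors Ctnnb1, Lef1 and Tcf7l2, and the feedback genes Axin2, Nkd1, Rnf43 and Znrf3. They were listed by name, and all 10 had a probe set assigned to that gene symbol alone, among 22180 genes measured in this way. The cells were a mouse inner medullary collecting duct (IMCD) line, an epithelial model of the last segment of the kidney tubule. A lentivirus delivered GFP and ILK from a bicistronic vector, and stable lines were made. The T173I group, which carried the missense variant ILK-T173I, had 3 arrays, and the wild-type group, which carried wild-type ILK, had 3 arrays. Every array came from cells given EGF at 20 ng/ml for 15 minutes and left for 1 hour before RNA was taken. No untransduced and no unstimulated cells were among the samples used here, so the comparison is between the ILK forms under EGF. The promoter that drives the vector, the level of each ILK form and the number of lines behind the replicates are not stated in the labels, so line and variant cannot be told apart. The labels call the arrays of a group biological replicates, and the p-values measure the spread between these arrays.

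Wnt proteins are secreted ligands that bind Frizzled receptors and their LRP co-receptors. In the canonical branch this stops a destruction complex built on axin from marking beta-catenin for breakdown, and beta-catenin then enters the nucleus and activates genes through TCF and LEF factors. Several of the genes switched on in this way, among them Axin2, Nkd1, Rnf43 and Znrf3, dampen the pathway, so their RNA is widely read as a measure of its activity. In the developing kidney Wnt9b is made by the ureteric bud, the tissue that gives rise to the collecting duct, Wnt4 acts in the cells that become nephrons, and Wnt7b is needed for growth of the medulla. ILK has been linked to beta-catenin. The comparison here reads RNA of pathway genes under the T173I and wild-type forms of ILK. With no cells free of added ILK, it cannot show whether ILK acts on beta-catenin.

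Values are log2 signals, so that a difference of 1 is a 2-fold difference, and signals of different genes cannot be set against each other as amounts. T173I replicate 1 stood nearer to the wild-type arrays than to the other T173I arrays. Over 13308 genes its Pearson correlation was 0.985 to 0.991 with the wild-type arrays and 0.964 to 0.981 with T173I replicates 2 and 3. Results are given with it, and for the larger differences also without it. Leaving out the array nearest to the wild-type group tends to widen differences by construction: the share of all genes with an unadjusted p under 0.05 was 10.2% over 6 arrays and 22.1% without it, and values without it are descriptive. T173I replicate 2 was the farthest from the wild-type arrays, with correlations of 0.959 to 0.967, and values without it are given as well. Of 20 collecting duct markers, 16 passed the filter on dim genes, among them Aqp2, Hoxb7, Pax2, Cdh1 and Epcam, while Aqp3, Aqp4, Scnn1b and Elf5 did not. Of those that passed, Aqp2 stood only at percentile 52.5 of all genes by mean signal. The mean of that list was 7.94 to 8.14 on the T173I arrays and 7.95 to 8.03 on the wild-type arrays, but members of it had differences of opposite sign. Of the 16 tested, 4 were higher and 1 lower in T173I at an unadjusted p under 0.05, where 10.2% of all genes had such a p, and 6 had groups that did not overlap, against 15.2% of all genes. None of the 16 passed the adjusted threshold. The keratins Krt19, Krt8, Krt18 and Krt7 had differences of 1.62, 0.64, 0.44 and 0.41, while Gata3, a zinc finger transcription factor, had -0.78 and Scnn1g, a sodium channel subunit, -1.19. Their part in the results on the Wnt genes was not tested. For 9 fibroblast genes, of which 4 passed the filter, the mean was 5.11 to 5.49 on the T173I arrays and 5.07 to 5.38 on the wild-type arrays. Within that list Postn ranged widely, at 8.05, 5.49 and 4.30 on T173I replicates 1 to 3. On wild-type replicates 1 to 3 Postn had 4.65, 6.05 and 6.26, and its part in the results was not tested. The means of the intercalated cell, proximal tubule and endothelial lists were 5.06 to 5.30 on the T173I arrays and 4.995 to 5.23 on the wild-type arrays. In these lists 3 of 6, 3 of 7 and 1 of 6 genes passed the filter, so passing it does not by itself show expression. For 7 leukocyte genes, of which 3 passed the filter, the mean was 5.45 to 5.57 on the T173I arrays and 5.36 to 5.61 on the wild-type arrays. Ptprc, which defines leukocytes, did not pass the filter, whereas Cd68 and Csf1r did, with differences of 1.10 and -0.78 between the groups whose part in the results was not tested. In RNA from whole cultures, fewer cells of a type and less RNA per cell cannot be told apart.

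No difference in a Wnt readout gene between T173I and wild-type cells was large against the spread between arrays. Of the 9 members that passed the filter, 0 had an adjusted p under 0.05 in limma's test, where the share over all genes tested was 0%. At an unadjusted p under 0.05 the count was 0 of 9 members, against 10.2% of all genes tested. The groups overlapped in all 10 members, whereas they did not overlap in 15.2% of all genes tested. The median difference of the 9 members, T173I minus wild type, was -0.067 log2 units, and that of all genes was -0.011. The median size of the difference without regard to sign was 0.13 for the members and 0.12 for all genes. Differences were negative for 7 of the 9 members and for 52.6% of all genes.

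**Figure D1:**
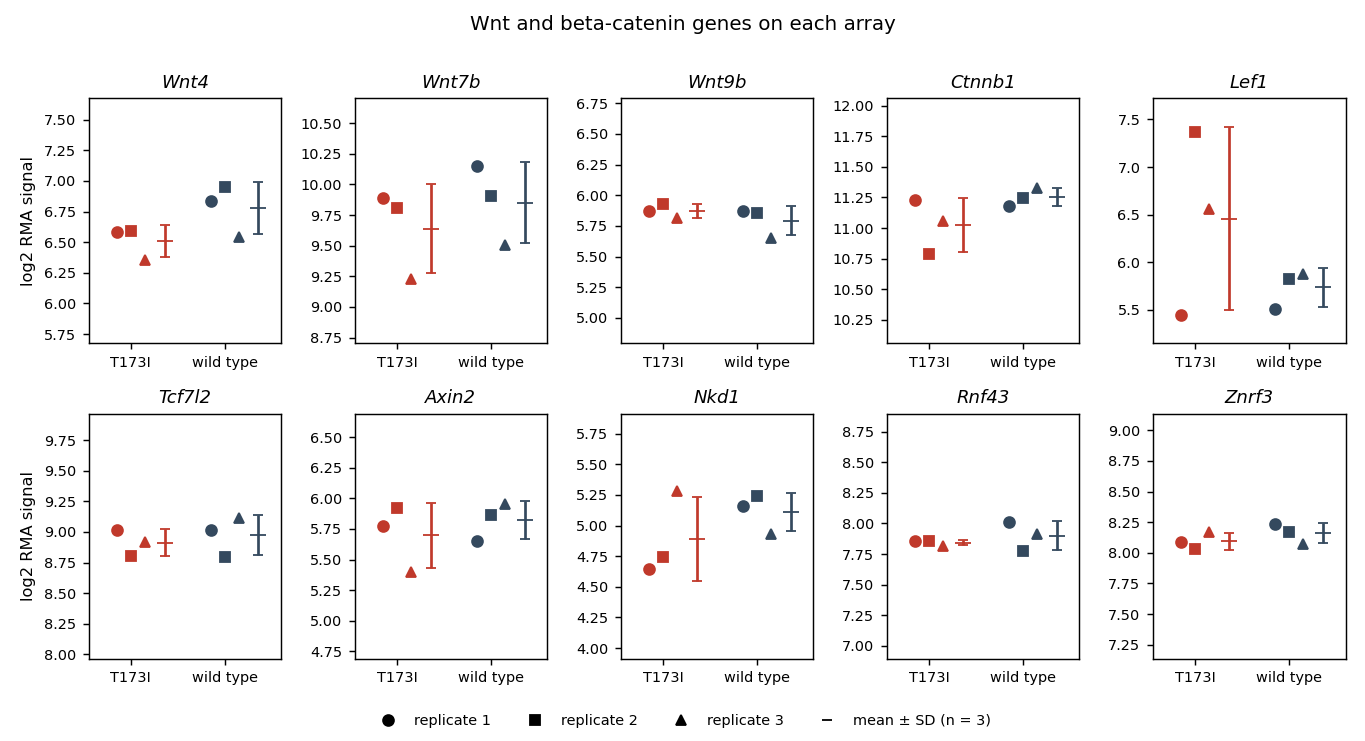
Log2 RMA signal of each of the 10 genes on the 3 T173I arrays (red, left in each panel) and the 3 wild-type arrays (dark, right), with the replicate number shown by the symbol and the mean ± SD of each group beside the points. The points of the groups overlap in every panel, and Lef1 has the widest range, with 7.36 and 6.56 on T173I replicates 2 and 3 and 5.44 on replicate 1.

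Among the ligands, Wnt4 had log2 signals of 6.58, 6.59 and 6.36 on T173I replicates 1 to 3, against 6.84, 6.95 and 6.54 on wild-type replicates 1 to 3. The first pair of wild-type arrays lay above every T173I array, and wild-type replicate 3 lay among the T173I values. The difference of -0.27 had a 95% interval of -0.58 to 0.05, with an unadjusted p of 0.084 and an adjusted p of 0.52. This was the smallest unadjusted p among the members. Replicate 3 was the lowest array in each group. With the replicate number as a block the unadjusted p of Wnt4 was 0.036 and the adjusted p 0.41.

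Wnt7b had signals of 9.89, 9.81 and 9.22 on the T173I arrays, against 10.15, 9.90 and 9.50 on the wild-type arrays. Here too replicate 3 was the lowest of its group in T173I and in wild type, and the groups overlapped. The difference was -0.21, with an interval of -0.76 to 0.34 and an adjusted p of 0.73. It was -0.0050 without T173I replicate 3, -0.06 without wild-type replicate 1 and -0.39 without wild-type replicate 3. Wnt9b had 5.87, 5.93 and 5.81 on the T173I arrays and 5.87, 5.86 and 5.65 on the wild-type arrays. Its difference of 0.077 had an interval of -0.14 to 0.30 (adjusted p = 0.76), which covers values up to 1.23-fold higher. The mean signal of Wnt9b stood at percentile 49.0 of all genes, not far above the filter on the dimmest 40%.

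Ctnnb1 encodes beta-catenin itself, whose activity is set mainly by protein stability and not by its RNA. It had signals of 11.23, 10.79 and 11.06 on the T173I arrays, against 11.18, 11.25 and 11.32 on the wild-type arrays. T173I replicates 2 and 3 lay below every wild-type array and T173I replicate 1 lay within the wild-type range. The difference was -0.23, with an interval of -0.52 to 0.07 and an adjusted p of 0.54. Without T173I replicate 1 it was -0.33 with an adjusted p of 0.17, and without T173I replicate 2 it was -0.11 with one of 0.78. Tcf7l2, a TCF factor that carries beta-catenin to DNA, had 9.02, 8.80 and 8.92 on the T173I arrays and 9.02, 8.79 and 9.11 on the wild-type arrays. All T173I arrays lay within the wild-type range, and the difference was -0.06 with an interval of -0.33 to 0.21 (adjusted p = 0.85).

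Lef1, a second factor of the same family and itself a target of beta-catenin in many tissues, varied most. It had signals of 5.44, 7.36 and 6.56 on T173I replicates 1 to 3, against 5.50, 5.82 and 5.88 on wild-type replicates 1 to 3. T173I replicate 1 was the lowest of the 6 arrays, while replicates 2 and 3 lay above all wild-type arrays. By mean signal Lef1 stood at percentile 52.6 of all genes, where the filter dropped the dimmest 40%. Its signals on T173I replicate 1 and on the wild-type arrays were not far above the filter's limit of log2 5.37. Whether the probe set read above background on these arrays was not tested. The fold differences of Lef1 and the place of T173I replicate 1 below wild type are therefore uncertain. Lef1 averaged 6.46 ± 0.96 in T173I and 5.73 ± 0.20 in wild type (SD, n = 3 each). The difference of 0.72, which is 1.65-fold, had an interval of -0.35 to 1.79, with an unadjusted p of 0.15 and an adjusted p of 0.57. Its size exceeded that of 97.4% of the genes tested, and its SD among T173I arrays that of 99.0% of them. Without T173I replicate 1 the difference was 1.23 (2.34-fold), with an interval of 0.60 to 1.86, an unadjusted p of 0.0033 and an adjusted p of 0.0799, so it did not pass there either. In that comparison 22.1% of all genes had an unadjusted p under 0.05 and 1.17% an adjusted one. Without T173I replicate 2 the difference was 0.27, with an adjusted p of 0.84. The order of Lef1 on the T173I arrays, with replicate 1 below and replicates 2 and 3 above all wild-type arrays, was found in 3.49% of the genes tested.

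**Figure D2:**
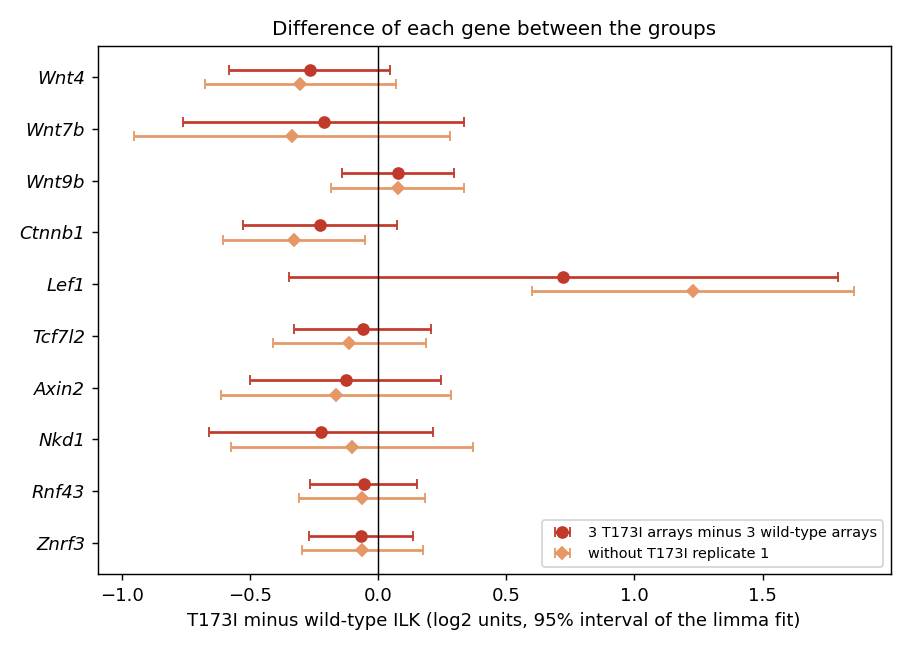
Difference of each gene, T173I minus wild-type ILK in log2 units, with the 95% interval of the limma fit, over all 6 arrays (red circles) and without T173I replicate 1 (orange diamonds). All 10 intervals over 6 arrays include 0; without T173I replicate 1 those of Lef1 (0.60 to 1.86) and Ctnnb1 (-0.60 to -0.05) do not, and neither passes the adjusted threshold.

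The genes whose profile over the 6 arrays was most like that of Lef1 were Metrnl, which encodes a secreted protein, Hmga2, a chromatin protein, and Cep170, a centrosomal protein. After each profile was centred on its mean, they departed from Lef1 by 0.093, 0.12 and 0.13 log2 units per array on average. Hmga2, for example, had 8.40, 10.14 and 9.32 on the T173I arrays, against 8.09, 8.37 and 8.52 on the wild-type arrays.

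The sequences before the starts of Lef1 and Axin2 are shown because these are the member that varied most and the standard readout of the pathway. They come from RefSeq on GRCm38.p6, run from 250 bases before to 50 bases after an annotated start, and were available for 8 of the 10 members in 14 windows, some of which overlap. Wnt7b and Znrf3 had no entry. The core of a TCF and LEF binding site was searched as CTTTGA and as CTTTGT on both strands, and matches are in capitals. Both forms share their first 5 letters.
Lef1, upstream start, chr3:131110047-131110346, plus strand: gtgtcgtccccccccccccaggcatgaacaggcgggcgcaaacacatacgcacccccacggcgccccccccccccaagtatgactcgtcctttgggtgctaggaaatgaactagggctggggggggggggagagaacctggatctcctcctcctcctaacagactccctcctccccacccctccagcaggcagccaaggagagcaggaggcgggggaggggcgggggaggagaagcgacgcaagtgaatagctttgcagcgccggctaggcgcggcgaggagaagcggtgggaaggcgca
Lef1, downstream start, chr3:131156044-131156343, plus strand: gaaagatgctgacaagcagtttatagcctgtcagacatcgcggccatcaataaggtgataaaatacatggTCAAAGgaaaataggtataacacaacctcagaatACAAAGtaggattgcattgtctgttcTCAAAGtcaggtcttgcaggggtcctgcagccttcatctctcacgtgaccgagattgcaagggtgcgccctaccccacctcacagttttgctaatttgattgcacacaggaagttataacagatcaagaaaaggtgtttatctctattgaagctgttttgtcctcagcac
Axin2, chr11:108920099-108920398, plus strand: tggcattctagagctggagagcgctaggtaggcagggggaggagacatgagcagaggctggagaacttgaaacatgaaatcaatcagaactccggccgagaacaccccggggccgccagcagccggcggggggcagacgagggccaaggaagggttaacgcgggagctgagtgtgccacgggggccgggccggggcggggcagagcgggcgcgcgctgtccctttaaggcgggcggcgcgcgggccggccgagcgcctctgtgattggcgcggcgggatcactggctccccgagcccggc

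The downstream window of Lef1 held 3 matches, all on the minus strand and therefore printed as TCAAAG or ACAAAG, at 180, 146 and 120 bases before that start. The upstream window of Lef1, further windows of Lef1 that are not printed, and the window of Axin2 held none. Of the 14 member windows 2 held a match, that one and a window of Tcf7l2, while 31.2% of all 32851 windows in the table held one. The array has 1 probe set for Lef1, whose place among the starts is not given in the files, so which start gave the signal could not be read. A match describes the letters alone.

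Of the 4 feedback genes, 3 were tested, with differences of -0.13 to -0.06. Axin2, which rebuilds the destruction complex and is the most used readout, had signals of 5.77, 5.92 and 5.40 on the T173I arrays, against 5.65, 5.86 and 5.96 on the wild-type arrays. T173I replicates 1 and 2 lay within the wild-type range and replicate 3 below it. The mean signal of Axin2 stood at percentile 47.7 of all genes, not far above the filter, which dropped the dimmest 40%. Whether its probe set read above background was not tested, so a small difference here cannot be read as unchanged expression. The difference was -0.13 with an interval of -0.50 to 0.25 (adjusted p = 0.77), which covers values from 1.41-fold lower to 1.19-fold higher. A second probe set for Axin2, dimmer on average, gave a difference of -0.11. Without T173I replicate 3 the difference of Axin2 was 0.024.

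Rnf43 and Znrf3 encode related membrane ubiquitin ligases that remove Frizzled receptors from the cell surface. Rnf43 had 7.85, 7.86 and 7.82 on the T173I arrays, against 8.01, 7.77 and 7.91 on the wild-type arrays. The T173I arrays lay closer together than the wild-type arrays and inside their range. The difference was -0.06 with an interval of -0.27 to 0.15 (adjusted p = 0.82). Znrf3 had 8.08, 8.03 and 8.17 on the T173I arrays and 8.24, 8.17 and 8.07 on the wild-type arrays. Its difference was -0.07 with an interval of -0.27 to 0.13 (adjusted p = 0.77), and the groups overlapped. The intervals of this pair of genes reach no further than 1.20-fold lower and 1.11-fold higher in T173I.

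Nkd1, which binds Dishevelled and restrains the pathway, was too dim for the test. It had 4.64, 4.74 and 5.28 on the T173I arrays and 5.16, 5.24 and 4.93 on the wild-type arrays. T173I replicates 1 and 2 were below and replicate 3 above every wild-type array. When dim genes were kept in the fit, the difference was -0.22 with an interval of -0.66 to 0.21 and an unadjusted p of 0.26. It was -0.42 with an unadjusted p of 0.016 without T173I replicate 3, -0.10 without T173I replicate 1 and -0.15 without T173I replicate 2.

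Array by array, the members did not move as a group. On T173I replicate 1, 7 of the 10 lay within the wild-type range, 1 above and 2 below. On replicate 2 there were 5 within, 2 above and 3 below, and on replicate 3 there were 4 within, 2 above and 4 below. Over all genes tested, 53.9%, 71.0% and 63.4% lay outside the wild-type range on T173I replicates 1, 2 and 3. The SD among T173I arrays exceeded that among wild-type arrays in 4 of the 9 tested members and in 70.6% of all genes tested.

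**Figure D3:**
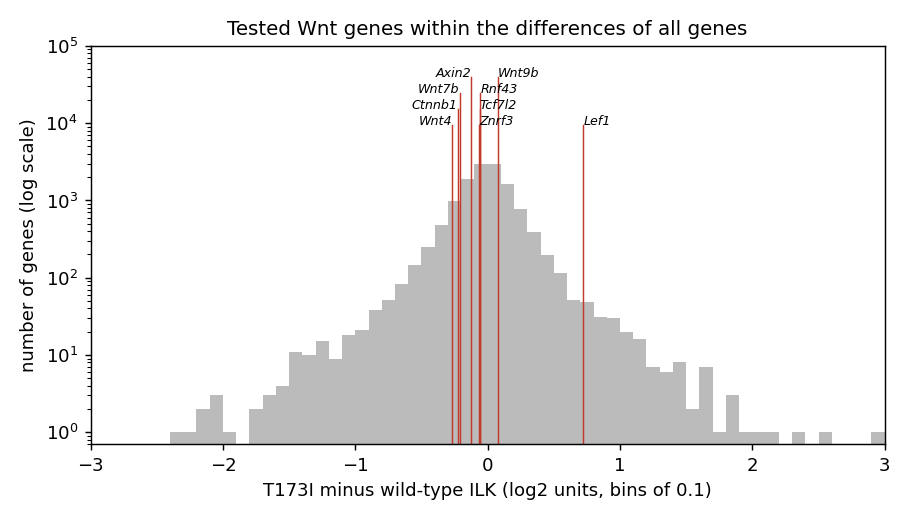
Differences of the 13308 genes tested, T173I minus wild-type ILK in log2 units, as a histogram with a log count axis. The difference axis is drawn from -3 to 3 and leaves out the few genes beyond it. Red lines mark the 9 tested members, their heights carrying no value. Of these, 8 lie between -0.27 and 0.08, and Lef1 lies at 0.72.

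The wider pathway was described by 8 lists sorted by role, which hold 112 genes besides the members. Of these, 86 were tested, and 0 had an adjusted p under 0.05. At an unadjusted p under 0.05 there were 9 of the 86, or 10.5%, against 10.2% of all genes tested, with 5 higher and 4 lower in T173I, where 4.88% of all genes were higher and 5.31% lower. The groups did not overlap in 7 of the 86, or 8.14%, against 15.2% of all genes. The median difference was 0.007. The first share is near that of all genes and the second below it. In the counts by list that follow, members are included where listed, and some genes stand in several lists.

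Among the Wnt ligands 11 of 19 were tested. Wnt10a, a canonical ligand, was the only one with an unadjusted p under 0.05, against 10.2% of all genes tested. It had 6.71, 7.61 and 7.41 on the T173I arrays, against 6.36, 6.26 and 6.45 on the wild-type arrays. All T173I arrays lay above all wild-type arrays, with replicate 1 the nearest to them. The difference was 0.89, or 1.85-fold, with an interval of 0.35 to 1.43 and an adjusted p of 0.45, and it was 1.15 with an adjusted p of 0.021 without T173I replicate 1 and 0.71 with one of 0.61 without T173I replicate 2. Wnt16 had a difference of -1.26 with an interval of -2.60 to 0.09, with wild-type replicate 3 at 8.94, T173I arrays at 5.88 to 6.93 and the other wild-type arrays at 6.84 and 7.17. Without wild-type replicate 3 the difference of Wnt16 was -0.61. Wnt5b and Wnt2 had differences of -0.12 and -0.11, at percentiles 46.4 and 42.0 of all genes by mean signal.

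Of the genes that release or strengthen ligands, 5 of 7 were tested and 0 had an unadjusted p under 0.05. Wls, which carries Wnt proteins to the cell surface, had a difference of -0.28 with an interval of -0.66 to 0.10. Porcn, which attaches the lipid that Wnt proteins need, had one of 0.14, and the R-spondins Rspo4 and Rspo1, which protect Frizzled receptors, had 0.09 and 0.08. By mean signal Rspo4 stood at percentile 41.9 of all genes, just above the filter.

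Among the receptors, 16 of 19 were tested, and 1 higher and 3 lower genes had an unadjusted p below 0.05. Over all genes tested, 4.88% were higher and 5.31% lower at that threshold. Lgr4, a receptor for R-spondins that counters Rnf43 and Znrf3, had 10.87, 9.91 and 10.38 on the T173I arrays, against 11.03, 11.19 and 11.15 on the wild-type arrays. Every T173I array lay below every wild-type array, replicate 1 by the least. Its difference was -0.74, or 1.66-fold, with an interval of -1.29 to -0.18 and an adjusted p of 0.45. It was -0.98 with an adjusted p of 0.059 without T173I replicate 1 and -0.50 with one of 0.61 without T173I replicate 2. Fzd5, a Frizzled receptor, had a difference of 0.27 with an interval of 0.05 to 0.48, and its groups did not overlap. Fzd7 and Fzd8, others of that family, had differences of -0.34 and -0.44, with overlapping groups. Fzd8 was listed at 6.25 on T173I replicate 1 and on wild-type replicates 1 and 2, and at 5.76 and 5.75 on T173I replicates 2 and 3. The adjusted p was 0.46 to 0.48 for these 3 Frizzled genes. The co-receptor Lrp6 had a difference of -0.04.

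Secreted inhibitors were tested for 10 of 16 genes. Against 5.31% of all genes tested, 1 was lower at an unadjusted p under 0.05. That gene, Sost, which encodes the LRP inhibitor sclerostin, had a difference of -0.42 with an interval of -0.81 to -0.04 and an adjusted p of 0.48. The mean signal of Sost stood at percentile 48.4 of all genes, and whether it read above background was not tested. Sfrp2, which binds Wnt proteins outside the cell, had 6.41, 9.34 and 8.92 on the T173I arrays, against 7.47, 7.36 and 7.15 on the wild-type arrays. T173I replicate 1 was below and replicates 2 and 3 above all wild-type arrays, as for Lef1. The difference was 0.90 with an interval of -0.82 to 2.62 and an adjusted p of 0.65, and it was 1.80 with an adjusted p of 0.021 without T173I replicate 1. Leaving out T173I replicate 2 gave 0.34 and leaving out replicate 3 gave 0.55. These values are of the brightest probe set of Sfrp2. As the mean of all its probe sets, the difference over 6 arrays was smaller, at 0.42. Sostdc1 and Wif1, 2 further inhibitors, had differences of 0.15 and -0.12.

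Of 17 genes that carry the signal through the cytoplasm, 15 were tested and 0 had an unadjusted p under 0.05. Among them Gsk3b, the kinase that marks beta-catenin, had a difference of -0.03, with an interval of -0.20 to 0.14, and Apc, a scaffold of the destruction complex, had -0.0066. Amer1, which recruits that complex to the membrane, had a difference of -0.22 with groups that did not overlap and an adjusted p of 0.52. Dvl3, Axin1 and Fbxw11 had differences of 0.14, 0.10 and 0.10.

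Of 19 nuclear effectors 17 were tested. Tle2, a Groucho corepressor, was the only one with an unadjusted p under 0.05, against 10.2% of all genes tested. The difference of Tle2 was 0.44 with an interval of 0.03 to 0.84 and an adjusted p of 0.49. Its groups did not overlap, and T173I replicate 1 was the highest array at 6.73. Hbp1, a repressor of Wnt target genes, had a difference of -0.65 with an interval of -1.34 to 0.05. Tle1 and Bcl9l, a corepressor and a coactivator, had differences of -0.14 and 0.19.

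The list of 23 feedback and target genes had 17 tested genes. Against 4.88% of all genes tested, 2 of the 17 were higher at an unadjusted p under 0.05. These were Ccnd1, which encodes cyclin D1, and Cd44, an adhesion receptor; growth factor signals also act on both genes. Ccnd1 had a difference of 2.53 with an adjusted p of 0.45, and of 3.43 with an adjusted p of 0.036 without T173I replicate 1 and 1.91 with one of 0.65 without T173I replicate 2. Cd44 had 8.33, 10.18 and 9.65 on the T173I arrays, against 7.53, 7.94 and 8.46 on the wild-type arrays. T173I replicate 1 lay within the wild-type range and replicates 2 and 3 above it. The difference of Cd44 was 1.41 with an interval of 0.26 to 2.56 (adjusted p = 0.47). Bambi and Zbed3 had differences of -0.26 and -0.18. Targets used as readouts in other tissues had small differences, with 0.02 for Notum and for Sp5 and -0.05 for Apcdd1, and Lgr5 was too dim for the test. By mean signal Notum, Apcdd1 and Sp5 stood at percentiles 42.3, 42.8 and 50.5 of all genes, where the filter dropped the dimmest 40%. Small differences at such signals cannot be read as unchanged expression.

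**Figure D4:**
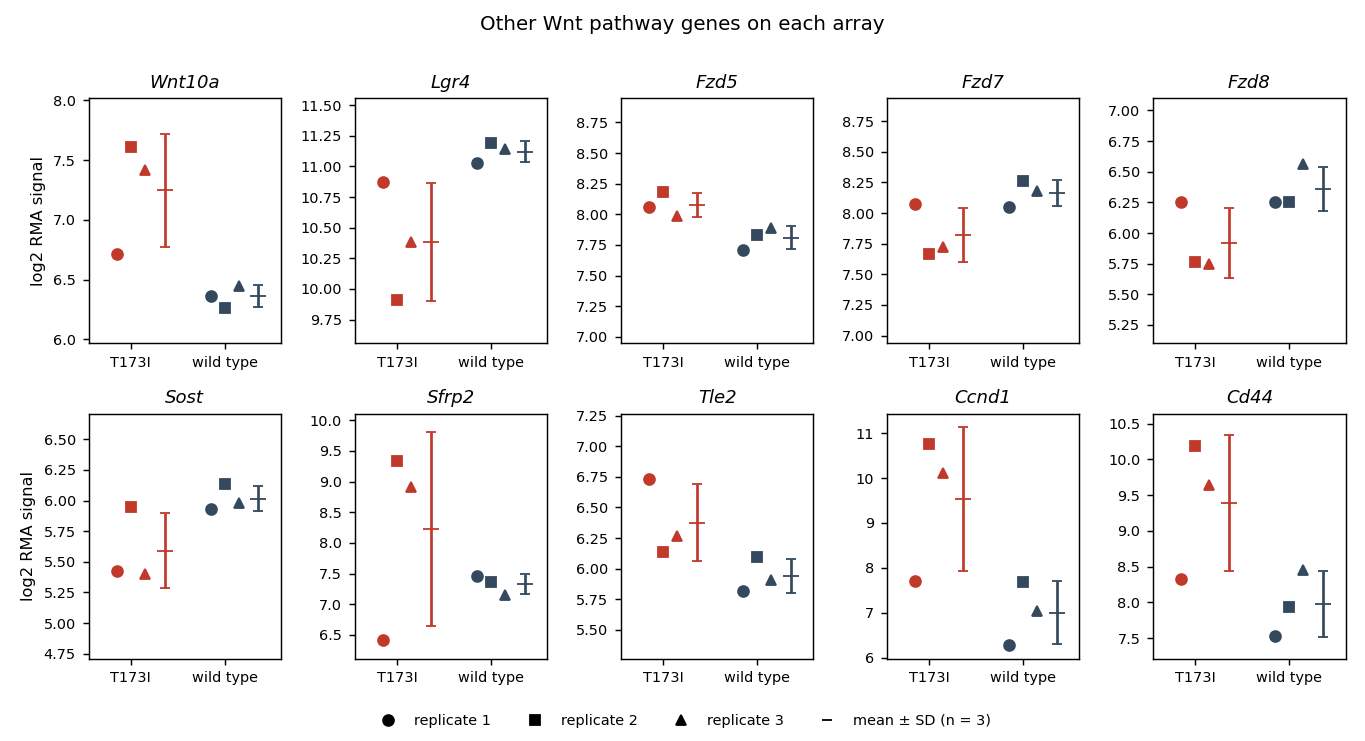
Log2 RMA signal on each array, T173I left and wild type right, of the 9 other pathway genes with an unadjusted p under 0.05 and of Sfrp2, with the mean ± SD of each group. In Sfrp2, Ccnd1 and Cd44 T173I replicates 2 and 3 lie above every wild-type array, while T173I replicate 1 (6.41, 7.71 and 8.33) lies below, just above and within the wild-type range; none of the 10 passes the adjusted threshold.

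The junction partners of beta-catenin, which hold part of it at the cell membrane, had 8 of 9 genes tested and 0 with an unadjusted p under 0.05. Cdh1, which encodes E-cadherin, averaged 11.30 ± 0.11 in T173I and 11.30 ± 0.03 in wild type (SD, n = 3 each), and its difference of -0.0021 had an interval of -0.21 to 0.20. Vcl, Cdh3 and Jup, which encode vinculin, P-cadherin and plakoglobin, had differences of 0.21, 0.10 and 0.07. Cdh2, which encodes N-cadherin, had one of 0.32 with an interval of -0.69 to 1.33.

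Without T173I replicate 1, 3 of the 86 tested pathway genes besides the members passed the adjusted threshold, namely Wnt10a, Sfrp2 and Ccnd1, and 0 of the 9 tested members did, where 1.17% of all genes passed. These calls rest on leaving out the T173I array nearest to the wild-type group, and leaving out any of the other 5 arrays gave 0 calls over all genes. At an unadjusted p under 0.05 there were 14 of the 86, or 16.3%, against 22.1% of all genes in that comparison, and 2 of the 9 members, Lef1 and Ctnnb1.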

How the data were processed

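RNA of 6 samples was hybridised to Affymetrix whole-transcript arrays. The authors deposited log2 values, for which the submitters' processing notes name RMA; this method makes the arrays' distributions alike, so that a shift of most genes in 1 direction would not be seen. No software version is stated. Array medians were 5.45 to 5.52. Arrays have no read depth, and their number limits the precision.

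Of 41345 probe sets, 23521 had exactly 1 symbol in the platform annotation. The probe set with the highest mean stood for each of 22180 genes, the dimmest 40% by mean (up to log2 5.37) were dropped, and the other 13308 genes entered limma 3.58.1 (R 4.3.3; lmFit, eBayes, tests of both directions, no covariate, Benjamini-Hochberg over all genes tested, threshold 0.05). Differences are T173I minus wild type. On simulated data with 13308 genes, the fit found 70 of 100 genes with a 2-fold change and 93 of 100 with a 4-fold change, with 12 false calls. The simulated noise was independent between arrays and had the same SD in both groups of a gene. In the data the median SD of a gene was 0.16 in T173I and 0.098 in wild type, and T173I replicate 1 stood near wild type. The simulated rates therefore check the code and do not give the share of changes found in these data.

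Members, lists and tests were chosen with earlier results of these data known. Genes besides the members were named as up to 4 per list with the smallest unadjusted p; Gsk3b, Apc, Lrp6, Cdh1, Notum, Sp5, Apcdd1 and Lgr5 were added as background after their values were seen. Genes like Lef1 were named by the smallest mean absolute difference of centred profiles, a step taken for members that ranged over 1 log2 unit or more. Alternatives covered the filter, eBayes prior, normalization, probe set rule, array weights, replicate block and each array left out.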

Additional observations from a re-analysis of the deposited data

How the results depend on the processing

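Over 6 arrays 0 genes passed the adjusted threshold under any filter, prior, normalization, probe set rule, array weights or replicate block; leaving out each array gave 0 to 156 genes, the 156 being without T173I replicate 1. The count of tested members with an unadjusted p under 0.05 was 2 with array weights (Lef1 and Wnt4; 21.5% of all genes), and 0 to 2 on leaving out an array, with Wnt4 called without wild-type replicate 3 (8.08% of all genes). Members with non-overlapping groups numbered 0 to 3 on leaving out an array, where fewer arrays make this more common (21.4% to 39.6% of all genes). Of the other pathway genes, 5 of 57 had an unadjusted p under 0.05 with the stricter filter, which tests fewer genes (11.1% of all genes there), 17 of 86 with array weights (21.5%), and 3 to 14 on leaving out an array, the count being 3 in the absence of T173I replicate 3 (7.31% of all genes) or of wild-type replicate 2 (5.97%), 4 in that of wild-type replicate 1 (5.03%), 5 in that of T173I replicate 2 (7.62%) and 14 in that of T173I replicate 1 (22.1%). The cause of the shifts with array weights was not tested.

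Signs turned for 6 genes, none past the threshold. On leaving out an array, Axin2 ran from -0.24 to 0.024, Tcf7l2 from -0.15 to 0.0087, Porcn from -0.0096 to 0.26 and Cdh2 from -0.073 to 0.62. With array weights Cdh2, at 0.32 over 6 equally weighted arrays, had -0.078 and Cdh3 -0.044, and Tle1 had 0.026 as the mean of its probe sets. Lef1 ran from 0.27 to 1.23 and kept its sign.

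Same-numbered arrays shared little, with correlations of deviations from the group means of 0.049, 0.067 and 0.048. T173I replicates 1 and 2 correlated best with the wild-type array of the same number, by little over the next values of 0.045 and 0.054. T173I replicate 3 correlated best with wild-type replicate 1 (0.082). Because the same-number values were small, the numbers were not used as pairs. With the replicate block, 1 member, Wnt4, had an unadjusted p under 0.05 (11.3% of all genes), and 0 genes passed the adjusted threshold.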

Other observations

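Sox9, a transcription factor of kidney epithelia that was on the target list but not named by its rank, is given here after its values were seen. It had 6.84, 10.34 and 9.33 on T173I replicates 1 to 3, against 8.19, 8.21 and 7.98 on the wild-type arrays. Its difference was 0.71 with an interval of -1.24 to 2.65 and an adjusted p of 0.75. T173I replicate 1 lay below and replicates 2 and 3 above all wild-type arrays, the order that Lef1 and Sfrp2 showed and that 464 of 13308 genes shared. Among the 86 other pathway genes 3 had this order, Sox9, Sfrp2 and Fbxw11.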
